A study of Mus musculus with 16 samples.

Results

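The genes described here encode the subunits of the 26S proteasome and its activators, measured in mouse muscle. They were found by their names on the array, as all probes besides controls whose gene name begins with Psma, Psmb, Psmc, Psmd, Psme, Psmf or Psmg followed by a number, without the inducible core subunits Psmb8, Psmb9 and Psmb10. This gave 65 of 41174 probes, with 41 of 27745 gene names. Of these, 18 probes belonged to core subunits (Psma and Psmb), 42 to regulatory subunits and activators (Psmc, Psmd and Psme) and 3 to the inhibitor PI31 (Psmf1). The name pattern also took 2 probes of Psmc3ip, a protein of meiotic recombination that is not a proteasome subunit, and it found no probe of a Psmg assembly chaperone.

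The study asked how the fish-oil type of fatty acids called n-3 LC-PUFA (long-chain, polyunsaturated) and the anti-diabetic drug rosiglitazone act together on muscle of obese mice. Both groups were male C57BL/6N mice, aged 3 months at the start, that ate a corn-oil-based high-fat diet (cHF, about 35% lipid by weight) for 8 weeks, were fasted for 10 hours and were then re-fed Chow diet. Both received rosiglitazone, an agonist of PPARγ, at 10 mg per kg diet. In 8 mice this was the only addition (cHF+ROSI), while in 8 others (cHF+F+ROSI) a concentrate with 46% docosahexaenoic and 14% eicosapentaenoic acid also replaced 15% of the dietary lipids. The comparison therefore measured the effect of n-3 LC-PUFA in mice that all had the drug and the high-fat diet, and mice without the drug were not analysed here. RNA of gastrocnemius, a calf muscle, carried Cy5 on the array of each mouse, beside a common pool that carried Cy3. A level is given here as log2(Cy5/Cy3), the muscle relative to the pool, and a log2 fold change is the mean of the cHF+F+ROSI mice minus the mean of the cHF+ROSI mice.

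The proteasome degrades proteins that were marked with chains of ubiquitin and is one of the main routes by which muscle breaks down its own contractile proteins, for example in fasting and disuse. Its 20S core is a barrel of alpha (Psma) and beta (Psmb) rings, and the active sites sit on Psmb5, Psmb6 and Psmb7. The 19S regulatory particle, made of ATPases (Psmc) and non-ATPase subunits (most Psmd genes), binds, unfolds and feeds in ubiquitinated proteins. The activators PA28 (Psme1, Psme2 and Psme3) and PA200 (Psme4) can take its place. Psmd5, Psmd9 and Psmd10 encode factors that help to assemble the 19S particle, and by their names they are counted here with the regulatory subunits. Subunits are needed in fixed proportions, and the transcription factor NRF1, encoded by Nfe2l1, can raise their genes together.

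No proteasome gene differed between the diets past the adjusted threshold, and the differences measured were small. Of the 65 probes, 58 passed a signal filter (mean signal at least 2 times the background in each channel) and were tested by limma among 19398 probes. Among these 58, 3 passed a p of 0.05 before adjustment (5.17%), against 7.44% of all probes tested. Higher in the cHF+F+ROSI mice were 2 (3.45%, against 3.49%), and lower was 1 (1.72%, against 3.95%). With a limit on the fold change (FC) of 1.2 either way 0 of 58 remained, against 1.49% of all probes, and at an adjusted p of 0.05 limma called 0 of 58, against 0.0155%. The methods' t-test also called 0 after adjustment and 6 before it, which added Psma6, Psmb4 and Psmd2 to the 3 of limma. Psma6 was higher in the cHF+F+ROSI mice (log2 fold change 0.07), while Psmb4 (-0.09) and Psmd2 (-0.08, and -0.04 by its other probe) were lower. The added genes had p between 0.0361 and 0.0434 in a two-sided exact permutation test over the mice. For these 2 tests the share of all probes called is not given here. No member separated the groups without overlap, which 0.0773% of all probes did. The 95% confidence interval of the log2 fold change lay within an FC of 1.2 either way for 49 of the 58 probes (84.5%), against 70.2% of all probes, so that for most members a change above 1.2-fold lay outside the interval. Values above 0 were found for 26 of the 58 probes (44.8%), against 49.3% of all probes. All log2 fold changes of the members lay between -0.25 and 0.22, with standard errors between 0.04 and 0.11.

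**Figure D1:**
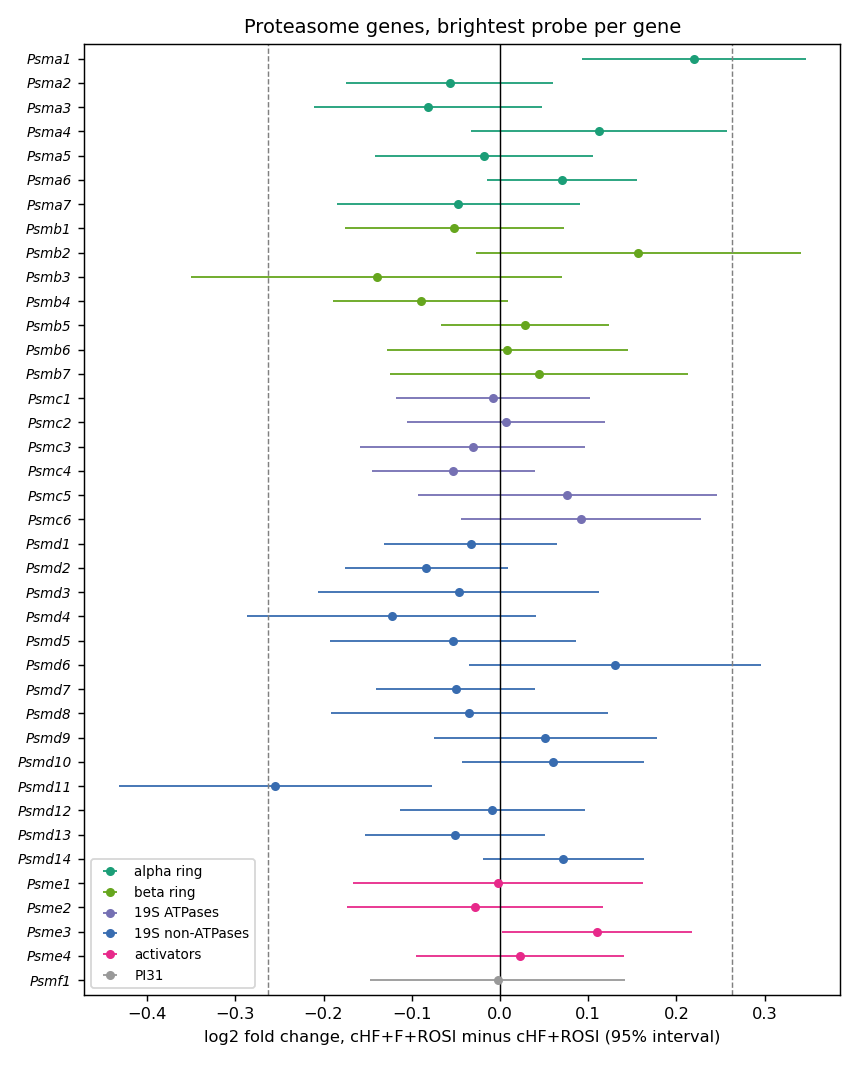
Log2 fold changes (cHF+F+ROSI minus cHF+ROSI, x axis) of the brightest probe of each of 39 proteasome genes, coloured by subunit class, with 95% confidence intervals from limma over 8 mice per group. Dashed lines mark an FC of 1.2 either way; all points lie between -0.25 and 0.22, and the intervals of Psma1, Psmd11 and Psme3 leave out 0.

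The arrays lay on 4 slides of 4, where positions 1 and 3 held cHF+ROSI and positions 2 and 4 held cHF+F+ROSI samples, so that position and diet cannot be told apart. Median Cy5 signal over background was between 2.33 and 3.64 per array, lowest in cHF+ROSI replicate 1. The skeletal muscle markers were well above background on every array for all 17 probes, of which 10 were saturated on some array. The median log2 fold change of these markers was -0.07 over 10 genes, with 7 below 0 and 3 above. Of the marker lists for other cells and fibres, none of the 8 slow-fibre genes passed an unadjusted p of 0.05, although 7 of 8 had values below 0 with a median log2 fold change of -0.40, and their median level in a mouse lay between -2.26 and 0.22 (cHF+F+ROSI) and between -1.39 and 0.76 (cHF+ROSI). Adipocyte markers had a median of 0.32 over 5 genes, red blood cell markers 0.17 over 4, lymphocyte markers 0.04 over 2, macrophage markers -0.02 over 8 and endothelial markers -0.16 over 4. Of these, 2 of the 4 endothelial genes passed a p of 0.05 before adjustment, against 7.44% of all probes. Their part in the values below was not tested, and in RNA of whole muscle fewer cells of a type and less RNA per cell cannot be told apart.

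The 20S core was covered by 16 tested probes of 14 genes, the complete set of constitutive alpha and beta subunits. By the brightest probe of each gene, 7 were above 0 and 7 below, with a median log2 fold change of -0.00471 (all 19398 probes: -0.00117). The Psma genes had a median of -0.02 and Psmb of 0.01. The catalytic subunits had differences close to 0 with the processing used here, although that of Psmb7 reached 0.43 under another processing. Psmb5, the chymotrypsin-like site, was measured by a probe at chr14:53568529-53568588 (mm8, the build of the array annotation). Its lowest, median and highest levels were -0.25, -0.17 and -0.01 in the cHF+F+ROSI mice and -0.29, -0.19 and -0.02 in the cHF+ROSI mice. The groups overlapped throughout, and the log2 fold change of 0.03 had a 95% interval from -0.07 to 0.12. Psmb6, the caspase-like site (chr11:70343707-70343766), had lowest, median and highest levels of -0.27, -0.20 and -0.02 against -0.41, -0.20 and 0.15, with the cHF+F+ROSI mice given first here and below. Its log2 fold change was 0.01, with an interval from -0.13 to 0.14. For Psmb7, the trypsin-like site (chr2:38435455-38455874, a span that crosses introns), the levels were -0.13, -0.08 and 0.09 in the cHF+F+ROSI mice and -0.57, -0.06 and 0.18 in the cHF+ROSI mice. The interval of its log2 fold change of 0.04 ran from -0.13 to 0.21, and the lowest cHF+ROSI value was that of replicate 1, the array with the weakest signal. Without that mouse the log2 fold change of Psmb7 was -0.02, so that its sign turned, and that of Psmb6 was 0.06.

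Psma1, which encodes a subunit of the outer alpha ring that gates entry to the barrel, had the smallest p of all members. Its promoter is printed here, with those of the other 2 members that passed a p of 0.05 in limma before adjustment. The letters before each start site can thus be compared. The windows are the 250 bases before the start in RefSeq on GRCm38.p6, on the strand of the gene, at chr7:114276117-114276366 (minus strand) for Psma1, chr11:80428365-80428614 (plus strand) for Psmd11 and chr11:101315963-101316212 (plus strand) for Psme3. Capitals mark matches on either strand to 4 short motifs, the CCAAT box (CCAAT), the GC box (GGGCGG), the ETS motif (CCGGAAG) and the antioxidant response element (TGACNNNGC), which do not overlap each other in these windows.
Psma1: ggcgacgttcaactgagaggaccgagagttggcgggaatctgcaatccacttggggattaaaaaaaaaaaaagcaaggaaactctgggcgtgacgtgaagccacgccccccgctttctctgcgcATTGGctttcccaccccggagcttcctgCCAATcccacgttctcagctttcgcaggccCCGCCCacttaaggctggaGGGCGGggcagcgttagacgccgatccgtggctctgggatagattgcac
Psmd11: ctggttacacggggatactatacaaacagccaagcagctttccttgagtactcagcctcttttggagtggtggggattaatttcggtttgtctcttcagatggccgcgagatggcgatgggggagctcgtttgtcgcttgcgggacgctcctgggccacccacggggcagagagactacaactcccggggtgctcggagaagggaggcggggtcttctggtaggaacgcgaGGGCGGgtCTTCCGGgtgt
Psme3: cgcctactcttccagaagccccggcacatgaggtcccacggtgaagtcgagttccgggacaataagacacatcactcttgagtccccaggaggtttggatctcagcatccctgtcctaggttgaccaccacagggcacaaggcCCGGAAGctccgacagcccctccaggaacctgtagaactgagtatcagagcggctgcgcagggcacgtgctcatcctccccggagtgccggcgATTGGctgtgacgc

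Psma1 held 2 CCAAT boxes and 2 GC boxes, Psmd11 held 1 GC box and 1 ETS motif, and Psme3 held 1 CCAAT box and 1 ETS motif. None of the 3 windows matched the antioxidant response element, the sequence class that NRF1 and NRF2 bind. Over the 33 of 40 subunit and PI31 genes with a window in the RefSeq table (36 windows), the ETS motif was in 12 windows (33.3%), against 6.91% of all 32851 windows. The GC box was in 21 (58.3%, against 32.7%), the CCAAT box in 12 (33.3%, against 33.8%) and the antioxidant response element in 5 (13.9%, against 10.2%), those of Psmb5, Psmb6, Psmc6, Psmd9 and Psmd12. These are matches of letters and not binding sites, and no test was made of them.

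The Psma1 probe lies at chr7:114055896-114055955 (mm8). Its lowest, median and highest levels were -0.01, 0.29 and 0.42 in the cHF+F+ROSI mice and -0.10, 0.06 and 0.22 in the cHF+ROSI mice. All but 1 of the cHF+F+ROSI mice were above the highest cHF+ROSI mouse, the exception being replicate 2 at -0.01. The group means were 0.28 ± 0.14 (SD, n = 8) and 0.06 ± 0.10 (SD, n = 8), a log2 fold change of 0.22 (FC 1.16, standard error 0.06, adjusted p = 0.310 and unadjusted p = 0.00187 from limma). A two-sided exact permutation test over the 16 mice had p = 0.00389. Within the 4 slides the differences were 0.06, 0.34, 0.32 and 0.16, and in the Cy3 channel, where every array held the same pool, the difference was 0.00. No other alpha subunit passed a p of 0.05 before adjustment in limma with the processing used here. Psma4 and Psma6 did so under some other processing or with a mouse left out. Psma6, at a log2 fold change of 0.07, had p = 0.0434 in the permutation test and p = 0.0420 in the methods' t-test (adjusted p = 0.641). Psma3 was the lowest alpha subunit with a log2 fold change of -0.08 (interval -0.21 to 0.05). After Psma1, Psma4, with 2 probes at 0.11 and 0.05, was the next above 0.

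Among the beta subunits, Psmb2, a structural subunit without an active site, had the highest log2 fold change, 0.16 (interval -0.03 to 0.34, adjusted p = 0.719 from limma). Its levels were 0.58, 0.73 and 0.82 in the cHF+F+ROSI mice and 0.03, 0.61 and 0.86 in the cHF+ROSI mice, in which the lowest was again replicate 1. Without that mouse its log2 fold change was 0.08. Psmb3, another structural subunit, had the lowest, -0.14 (interval -0.35 to 0.07), with levels of -0.83, -0.76 and -0.67 against -0.89, -0.72 and 0.04, and its second probe gave -0.08. The highest cHF+ROSI value of Psmb3 was also that of replicate 1, without which its log2 fold change was -0.05.

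**Figure D2:**
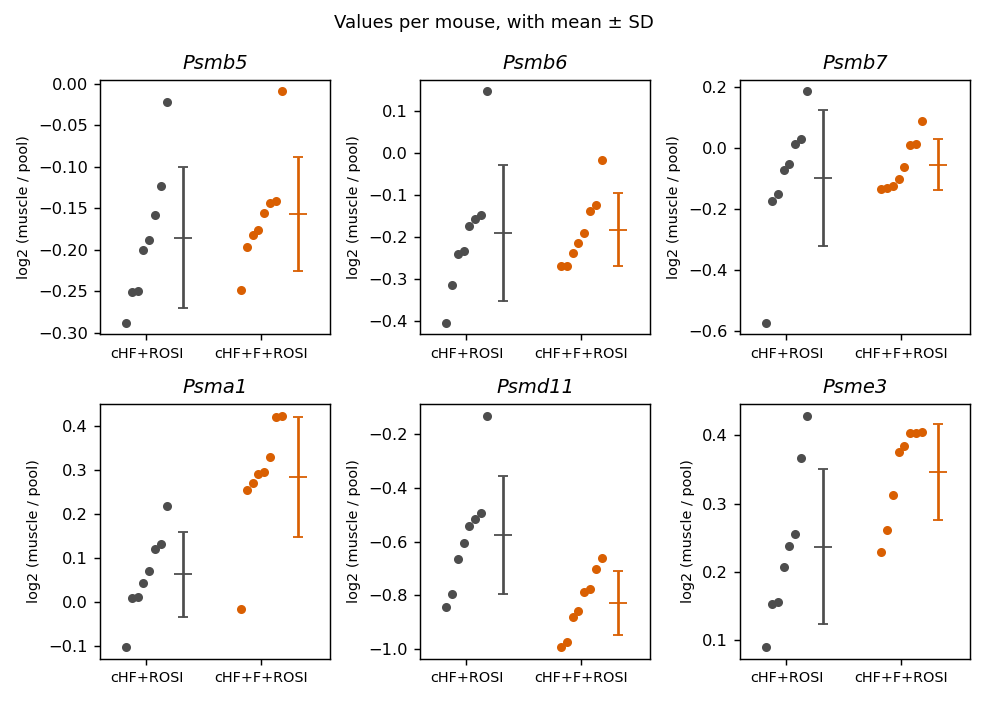
Levels of the 3 catalytic subunits (top) and of the 3 members that passed a p of 0.05 in limma before adjustment (bottom) in each mouse, as log2(muscle / pool) on the y axis, with mean ± SD of 8 mice per group beside the points. The catalytic subunits overlap throughout, Psma1 is above the cHF+ROSI range in 7 of 8 cHF+F+ROSI mice, and all panels have their own y axis.

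The regulatory subunits and activators were covered by 38 tested probes of 24 genes, of which 9 were above 0 and 15 below by the brightest probe. Their median log2 fold change was -0.02, and 2 of 38 probes (5.26%, against 7.44% of all probes) passed a p of 0.05 before adjustment. Psmd11, which encodes the non-ATPase subunit Rpn6 that clamps the 19S particle to the core, was the lowest. Its probe at chr11:80287965-80288024 (mm8) gave lowest, median and highest levels of -0.99, -0.82 and -0.66 in the cHF+F+ROSI mice and -0.84, -0.57 and -0.13 in the cHF+ROSI mice. All 8 cHF+F+ROSI mice were below the mean of the cHF+ROSI mice, with an overlap between -0.84 and -0.66. The means of -0.83 ± 0.12 (SD, n = 8) and -0.57 ± 0.22 (SD, n = 8) differed by -0.25 (FC 0.838, standard error 0.08, adjusted p = 0.470 and unadjusted p = 0.00761 from limma), while the two-sided exact permutation test over mice had p = 0.00793. Within slides the differences were -0.54, -0.34, -0.02 and -0.13. In the Cy3 channel the difference was 0.05, and with the Cy5 channel alone the log2 fold change was -0.19. The highest cHF+ROSI value came from replicate 1, without which the log2 fold change was -0.19. The second Psmd11 probe did not pass the signal filter and was not well above background on any array.

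Psme3, which encodes PA28γ, the nuclear activator that works without ubiquitin, was measured at chr11:101138961-101139021 (mm8). Its levels were 0.23, 0.38 and 0.41 in the cHF+F+ROSI mice and 0.09, 0.22 and 0.43 in the cHF+ROSI mice. All 8 cHF+F+ROSI values lay inside the range of the cHF+ROSI mice, 7 of them above its mean. The log2 fold change was 0.11 (FC 1.08, standard error 0.05, adjusted p = 0.665 and unadjusted p = 0.0458 from limma), while the two-sided exact permutation test over mice had p = 0.0381. Within the 4 slides the differences were 0.22, 0.22, 0.07 and -0.06, so that the sign turned on the fourth. In the Cy3 channel the same probe differed by -0.16 between the arrays of the groups, and with the Cy5 channel alone the log2 fold change was -0.05, so that the direction was not the same without the reference channel.

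The ATPases of the 19S base, which unfold the substrate, had a median of 0.00 over 6 genes, with Psmc6 highest at 0.09 (interval -0.04 to 0.23, and 0.05 without cHF+ROSI replicate 1) and Psmc4 lowest at -0.05 (interval -0.15 to 0.04). Of the 14 Psmd genes 10 were below 0, with a class median of -0.04, counting the assembly factors Psmd5 (-0.05), Psmd9 (0.05) and Psmd10 (0.06). Psmd6, a subunit of the 19S lid, was the highest at 0.13 (interval -0.04 to 0.30), but had 0.06 without cHF+ROSI replicate 1, where Psmd14 had 0.07. Psmd14, the deubiquitinase that removes the chain from the substrate, had 0.07 and 0.06 by its 2 probes, and Psmd4, a ubiquitin receptor, had -0.12 and -0.06. None of these passed an unadjusted p of 0.05. PA200 (Psme4) had values between 0.02 and 0.09 by 3 probes. The inhibitor PI31 (Psmf1) had 0.00 by its brighter probe and -0.08 by the other, and neither passed a p of 0.05. Of the subunit genes with more than 1 tested probe, only Psmd7 and Psmd12 had probes on either side of 0, none of which passed a p of 0.05 before adjustment. The 7 probes below the filter had log2 fold changes between -0.03 and 0.07 when tested without it, with 0 called. They included the only probe of Psma8, the testis form of an alpha subunit, which was well above background on 1 array.

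The balance between core and regulatory genes was compared mouse by mouse. The median level of the 14 core genes per mouse was -0.12 ± 0.06 (SD, n = 8) with n-3 LC-PUFA and -0.11 ± 0.08 (SD, n = 8) without. For the 24 regulatory genes it was -0.08 ± 0.06 (SD, n = 8) and -0.07 ± 0.05 (SD, n = 8). The core median minus the regulatory median per mouse was -0.04 ± 0.04 (SD, n = 8) and -0.04 ± 0.06 (SD, n = 8), with ranges of -0.10 to 0.02 and -0.11 to 0.08, so that the balance between them differed by less than the spread between mice. The differences between the diets were not the same on every slide. The core median log2 fold change was -0.02, 0.07, 0.12 and -0.13 on the 4 slides, and the regulatory one -0.02, -0.01, 0.11 and -0.11. Both were highest on the third slide and lowest on the fourth, while the median of all probes stayed between -0.01 and 0.01.

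**Figure D3:**
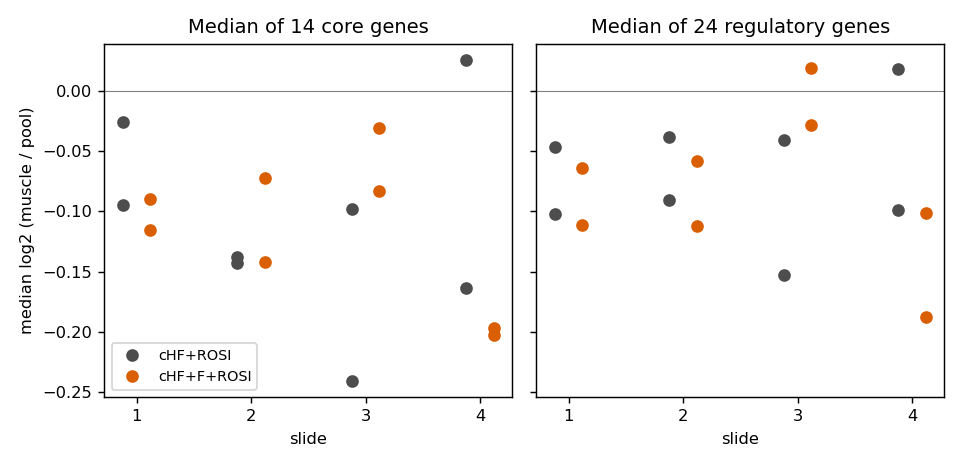
Median level (log2 of muscle over pool, y axis) of the 14 core genes (left) and the 24 regulatory genes (right) for each mouse, by slide (x axis), with 2 mice per group and slide. The groups overlap over all slides, and the highest core value of 0.03 is that of cHF+ROSI replicate 7 on the fourth slide.

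As a background for the class, the cytosolic ribosomal protein genes also encode subunits of a large complex. They had 24 of 123 tested probes (19.5%, against 7.44% of all probes) below a p of 0.05 before adjustment. Of these, 22 were lower with n-3 LC-PUFA (17.9%, against 3.95%), and the median log2 fold change was -0.08 over 79 genes. The respiratory chain genes had 7 of 102 (6.86%, against 7.44%) with a median of 0.01 over 77 genes. At an adjusted p of 0.05 limma called 0 in both. Whether these classes differ from the proteasome genes was not tested.

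Within the groups, the correlation of the proteasome genes from mouse to mouse depended on the normalization and on single mice. Pearson's r between pairs of genes, over the 16 mice after removal of the group means, averaged 0.325 for the core and 0.204 for the regulatory genes, against 0.00345 for all probes. The same mean r was 0.342 for the respiratory chain genes and 0.249 for the cytosolic ribosomal protein genes, so that such values were not particular to the proteasome. The alpha subunits were the most alike with a mean r of 0.538, followed by the ATPases with 0.464, the Psmd genes with 0.259 and the beta subunits with 0.196. Without cHF+ROSI replicate 7, the mouse with the highest core median, the mean r of the core was 0.153, and without replicate 1 it was 0.451. With scale normalization between arrays it was 0.067 and with median centring 0.714, where that of all probes was also higher (0.062). These values are descriptions over mice that share slides and a reference, and they carry no test. The 5 probes whose levels were most like the core mean over the 16 mice were those of Slc35a3 (r = 0.930), Sugt1 (0.915), Rbm7 (0.911), Ptrh2 (0.902) and Mrps10 (0.895).

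**Figure D4:**
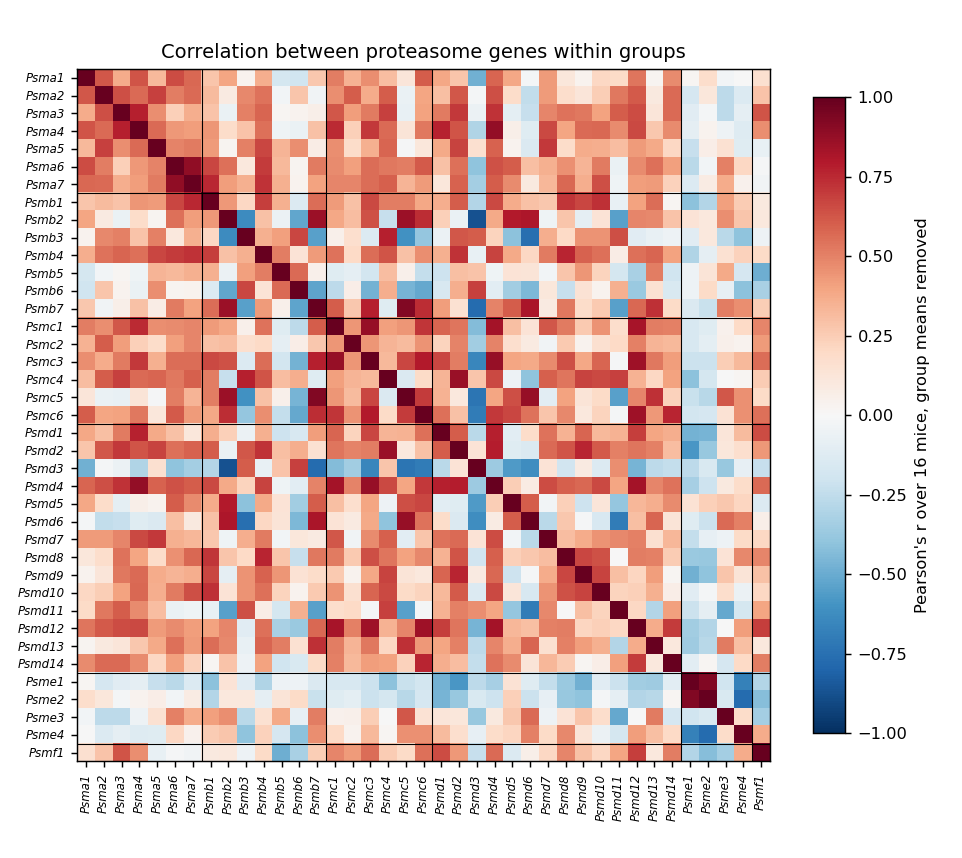
Pearson's r between the brightest probes of 39 proteasome genes over 16 mice after removal of the group means, with genes on both axes ordered by class and lines between classes. Red cells are positive and blue cells negative; the block of alpha subunits is the most evenly positive, and Psme1 and Psme2 form a pair of their own (r = 0.922).

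Psme1 and Psme2, the subunits of the interferon-inducible activator PA28, had 1 cHF+F+ROSI mouse far above the others. Their promoters are shown with the same motifs in capitals, because this pair shared that mouse. They lie at chr14:55578244-55578493 (plus strand) and chr14:55591102-55591351 (minus strand, the first of 2 start sites) on GRCm38.p6, and each held 1 GC box and none of the other 3 motifs.
Psme1: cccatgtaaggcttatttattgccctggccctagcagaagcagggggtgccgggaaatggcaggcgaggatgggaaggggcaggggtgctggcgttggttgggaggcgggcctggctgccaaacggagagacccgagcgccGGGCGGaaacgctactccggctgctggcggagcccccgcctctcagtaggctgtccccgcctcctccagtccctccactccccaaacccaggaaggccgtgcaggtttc
Psme2: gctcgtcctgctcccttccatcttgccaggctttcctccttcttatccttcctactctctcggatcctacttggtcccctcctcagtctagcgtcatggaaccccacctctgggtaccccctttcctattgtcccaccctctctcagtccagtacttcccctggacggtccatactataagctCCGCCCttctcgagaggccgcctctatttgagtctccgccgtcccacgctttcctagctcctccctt

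Psme1 had levels of -0.09, -0.03 and 0.59 in the cHF+F+ROSI mice and -0.03, 0.06 and 0.14 in the cHF+ROSI mice, and its log2 fold change was 0.00 (interval -0.17 to 0.16). Psme2, by its brighter probe, had levels of -0.34, -0.22 and 0.25 against -0.28, -0.13 and -0.05, with a log2 fold change of -0.03 (interval -0.17 to 0.12). In both genes the highest value was that of cHF+F+ROSI replicate 1, without which the log2 fold changes were -0.08 and -0.09, still short of a p of 0.05. The same mouse had the highest levels of Psmb8 (1.50), Psmb9 (1.42) and Psmb10 (0.71), the inducible catalytic subunits that replace Psmb5, Psmb6 and Psmb7 in the immunoproteasome. In the other 15 mice the highest levels of these were 0.42, 0.26 and 0.17. Its median over the 9 immunoproteasome and antigen-processing genes was 1.19, while the cHF+ROSI mice ranged from -0.14 to 0.08. The core median of this mouse was -0.20, the lowest of its group.

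Across all 16 mice the mean r of Psme1 and Psme2 with Psmb8, Psmb9 and Psmb10 was 0.856, and that with the core genes was -0.06. Without cHF+F+ROSI replicate 1 the former was 0.170, so that it rested on this mouse, while Psme1 and Psme2 still had an r of 0.670 with each other. None of the 9 immunoproteasome and antigen-processing genes passed a p of 0.05 before adjustment between the diets when all 16 mice were compared. The log2 fold changes of Psmb8, Psmb9 and Psmb10 were 0.10, 0.17 and -0.02, with standard errors of 0.19, 0.20 and 0.11. Without cHF+F+ROSI replicate 1 they were -0.10, -0.03 and -0.13, and Psmb10 then passed a p of 0.05 in limma before adjustment.

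**Figure D5:**
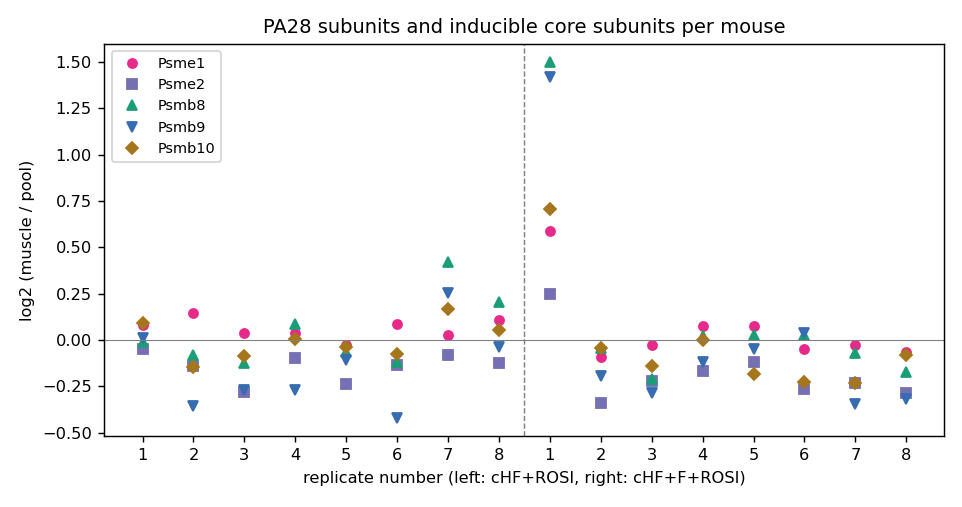
Levels of Psme1, Psme2 and the inducible subunits Psmb8, Psmb9 and Psmb10 as log2(muscle / pool) on the y axis in each of 16 mice, by replicate number within group on the x axis. All 5 genes are highest in cHF+F+ROSI replicate 1, in which Psmb8 reaches 1.50.

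Genes that supply the proteasome with substrate or regulate it were given by lists. Of 15 associated, shuttle and assembly factors 9 had values below 0 and 6 above, and 1 (against 7.44% of all probes) passed a p of 0.05 before adjustment, Rad23b, a shuttle for ubiquitinated proteins, at -0.17 by its brightest probe (adjusted p = 0.669 from limma), with the other 3 probes between 0.03 and 0.06. The 6 genes of p97 and its cofactors, which extract ubiquitinated proteins, had a median of 0.05 and none below a p of 0.05.

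Among 10 regulators and NRF2 targets, 2 passed a p of 0.05 before adjustment (against 7.44% of all probes), both with values below 0 (against 3.95%). They were Ddi2, the protease that activates NRF1, at -0.16 by its brightest probe (adjusted p = 0.623 from limma) but 0.05 and -0.10 by its other 2 probes, and Gclc, a subunit of the enzyme that limits glutathione synthesis, at -0.17 (adjusted p = 0.457 from limma). Nfe2l1 itself had levels of 0.00, 0.17 and 0.43 in the cHF+F+ROSI mice and 0.12, 0.28 and 0.45 in the cHF+ROSI mice, with a log2 fold change of -0.11 (interval -0.24 to 0.03) that missed the threshold. Of 11 muscle ubiquitin ligases 8 had values above 0 and 3 below, and 1 (against 7.44% of all probes) passed a p of 0.05 before adjustment, Huwe1, at 0.16 (adjusted p = 0.428 from limma), with 0.18 by its other probe. Fbxo32, which encodes the atrophy ligase atrogin-1, had levels of -1.04, -0.40 and 0.10 against -1.42, -0.58 and -0.02, a log2 fold change of 0.15 with a standard error of 0.18. Trim63, which encodes the atrophy ligase MuRF1, gave -0.12 and -0.54 by its 2 probes with standard errors of 0.13 and 0.32, so that its probes did not settle a value. None of these genes of the other lists passed an adjusted p of 0.05.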

How the data were processed

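Gene expression was measured on 16 two-color arrays, 1 per mouse, with Cy5 for the mouse and Cy3 for a reference pool common to all arrays. No dyes were swapped. Spot intensities of every array were deposited by the authors, from Agilent Feature Extraction (10.5.1.1 per the file headers, 10.5.5.1 per the labels) together with their normalized table of log2 values, used here as an alternative. The array annotation is on mm8.

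Median signals were background-corrected by normexp (offset 50), and probes were kept where the mean signal was at least 2 times background in each channel (20703 of 43379 spots). Outlier-flagged spots were left out, log2(Cy5/Cy3) was normalized by loess per array, and spots of a probe were averaged. The offset makes fold changes of weak probes smaller. The comparison used limma 3.58.1 (lmFit, eBayes; R 4.3.3), and p-values of 19398 probes were adjusted by Benjamini and Hochberg's method. Single probes were also compared by the two-sided exact permutation test over 12870 splits of the mice (smallest p possible 0.0001554). A gene stood by its brightest probe. Named genes were the catalytic subunits, members below a p of 0.05 before adjustment in limma or the methods' t-test, the highest and lowest of each class, and members with 1 value far from its group. From the other lists came members below that p in limma, with Psmb8, Psmb9, Psmb10, Fbxo32, Trim63 and Nfe2l1. The list of ubiquitin genes is not reported here. The members, lists and tests were chosen with earlier results of these data known.

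Of the 65 member accessions, 55 matched RefSeq with the same symbol. Promoter windows came from RefSeq on GRCm38.p6. Of the member probes, 59 were well above background in Cy5 on all arrays and none was saturated. No 2 arrays held identical ratios. The number of arrays limits the precision. The procedure was tested on simulated data. Alternatives covered background, normalization, channel, filter, flags, slide and replicate blocks, the authors' table, array weights, the methods' t-test and each mouse left out. The labels number the mice 1 to 8 in each group without stating a shared origin, so p-values measure the spread between these mice.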

Additional observations from a re-analysis of the deposited data

Results flagged for a closer look

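A value far from the rest of its group by Dixon's ratio was found in 21 of 120 groups of 8 values (58 member probes and both per-mouse medians, in 2 groups each), of which chance alone gives about 6. Several of them came from the same mouse. The groups share mice, and some share a gene, so that they are not independent of each other.

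In cHF+ROSI replicate 1, the array with the weakest Cy5 signal, the level was 0.15 for Psmb6 (next -0.15), -0.57 for Psmb7 (next -0.17), 0.11 for Psmd3 (next -0.23) and -0.18 for Psmd6 (next 0.28). The same array gave -0.12 and 0.25 for the 2 probes of Psmc5, an ATPase, whose next values were 0.49 and 0.68. In cHF+F+ROSI replicate 1 it was 0.59 for Psme1 (next 0.08), 0.40 and 0.25 for the 2 probes of Psme2 (next -0.01 and -0.12), -0.21 for Psmb1 (next -0.08) and -0.46 for Psmd2 (next -0.31). In cHF+F+ROSI replicate 2 the level was -0.014 for Psma1 (next 0.25), -0.0094 for Psmb5 (next -0.14) and -0.084 for Psmd3 (next -0.30).

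Of the remaining values, cHF+F+ROSI replicate 6 had 0.084 for the dimmer probe of Psmc4 (next -0.011), 0.050 for Psmd8 (next -0.20) and 0.31 for the brighter probe of Psmf1 (next 0.05). In cHF+F+ROSI replicate 5 the level was 0.36 for the dimmest probe of Psmd12 (next 0.60) and -0.062 for the dimmer probe of Psmf1 (next -0.30). Among the cHF+ROSI mice, replicate 7 had 0.32 for Psmb1 (next 0.06) and replicate 5 had -0.39 for Psmc2 (next -0.19). The cause of these values was not tested.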

How the results depend on the processing

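At an adjusted p of 0.05, 0 member probes were called under all 29 alternatives. The count of 3 probes below a p of 0.05 before adjustment was 1 with median centring, 5 with array quality weights and 6 with the methods' t-test, and between 2 and 7 with single mice left out, the highest without cHF+ROSI replicate 7 and 5 without cHF+F+ROSI replicate 6. The count of 0 with an FC of at least 1.2 was 1 with median centring, array quality weights and the authors' normalized table, and between 0 and 1 with single mice left out. The median log2 fold change of the regulatory genes was 0.049 with scale normalization and 0.053 in the authors' table, against -0.02, and that of the core genes 0.06 and 0.06, against -0.00471. With median centring both were -0.06. With single mice left out the regulatory median lay between -0.03 and 0.00, that of the core genes between -0.03 and 0.01, and the core minus regulatory difference between -0.02 and 0.02. Psma1 was above 0 under all 28 alternatives and missed an unadjusted p of 0.05 with median centring (log2 fold change 0.17). Psmd11 was below 0 under all 28 and missed it with scale normalization (-0.10). Psme3 kept it under 11 of 28, and its log2 fold change was -0.049 with the Cy5 channel alone. Psmb2 reached it without cHF+ROSI replicate 7 (0.20), as did Psma4 (0.14), Psma6 (0.09) and the dimmer probe of Psmc5 (0.22). Psma4 also reached it without background correction (0.15), with scale normalization (0.24), in the authors' table (0.20), with array quality weights (0.16) and without cHF+F+ROSI replicate 2 (0.14). Psma6 did so with the Cy5 channel alone (0.19), without the filter (0.08), with array quality weights (0.09) and by the methods' t-test. Psmb4, Psmc6, Psmd2 and Psmd14 also reached it under some alternative. Of the catalytic subunits, Psmb5 lay between -0.02 and 0.13 over the 28 alternatives and Psmb6 between -0.06 and 0.08. Psmb7 lay between -0.02 and 0.43, but at most at 0.08 with single mice left out. None of these 3 reached an unadjusted p of 0.05 under any alternative. The cause of these shifts was not tested. Correlations between genes under the alternatives were computed after seeing the data.

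With the replicate number as a block, 3 member probes passed 0.05 before adjustment and 0 after it, and the core and regulatory medians were -0.00471 and -0.02. Whether the numbers pair some of the mice was not settled by the correlation of same-numbered deviations. It ranged from -0.34 to 0.73 and was above 0.1 in 4 of 8 pairs, and 2 of 8 cHF+ROSI mice correlated best with their own number. The weak Cy3 signal limits the ratios of dim probes.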
